A study of Homo sapiens with 12 samples.

Results

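The AP-1 family is described here through 10 genes, JUN, JUNB, JUND, FOS, FOSB, FOSL1, FOSL2, ATF3, BATF and BATF3. They were chosen by name among the genes that encode proteins of AP-1 dimers, and other bZIP genes that can pair with them form a separate list below. All 10 were found by symbol among the 44147 gene features of the RNA-seq data, and all 10 had enough reads to be tested. The RNA came from CCRF-CEM, an established human T lymphoblast leukemia line, and from a derivative that lacks intact SLFN11, per the labels. The SLFN11 protein belongs to the Schlafen family and is recruited to stalled replication forks. Cells received prexasertib, a drug that blocks the replication checkpoint kinase CHK1, or the solvent DMSO. There were 3 libraries in each of 4 groups: knockout cells labelled prexasertib, at 100 nM for 6 h; knockout cells labelled DMSO; parent cells labelled prexasertib, at the same dose and time; and parent cells labelled DMSO. The parent cells carry wild-type SLFN11, per the labels. How the knockout was made, and whether it is 1 clone, was not given in the sources used here. Whether the 3 libraries of each group stem from different cultures is not in the labels, and p-values reflect only how these libraries vary, which may be technical.

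The treatment labels are in doubt. All 12 records carry in their title a library name that belongs to data attached to a record of the same line but the opposite treatment. Groups follow the record to which the data are attached, and are called "labelled prexasertib" and "labelled DMSO" throughout. If the library names hold instead, each difference between treatments and each difference between the lines in that difference changes sign, and the knockout against parent comparisons of the 2 treatments change places. The line of each library is the same either way.

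AP-1 is a dimeric transcription factor whose subunits pair through a leucine zipper and touch DNA through an adjoining basic region. JUN proteins pair with each other or with FOS proteins, while FOS proteins need a partner. ATF3 and the BATF proteins pair with JUN proteins and often repress, or direct the dimer to composite sites. JUN, FOS, FOSB, JUNB and ATF3 are immediate early genes, transcribed within minutes of a stimulus by factors already present, and MAP kinases then phosphorylate the JUN and FOS proteins. In T cells, AP-1 binds together with NFAT at cytokine genes after stimulation of the antigen receptor.

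Libraries held 47887791 to 77548202 exonic reads. SLFN11 itself had 85.0 to 90.7 and 65.9 to 69.1 exonic CPM (reads of a gene scaled to the library total) in knockout libraries labelled prexasertib and DMSO, against 117 to 119 and 91.2 to 100.4 CPM in parent libraries with the same labels, so its RNA was lower but still present in the knockout line. The 9 T-lineage markers summed to 1249 to 1601 CPM over the 12 libraries, with 1249 to 1337 CPM in parent libraries labelled DMSO. The 5 B-cell markers summed to 40.7 to 43.5 and 41.3 to 43.7 CPM in knockout libraries labelled prexasertib and DMSO, against 30.0 to 34.9 and 25.1 to 28.1 CPM in parent libraries with those labels. Most of this was CD79A (16.4 to 32.99 CPM) and CD79B (8.17 to 12.1 CPM), while MS4A1 was at 0 in every library. The 4 epithelial markers, with KRT19 at 0, summed to 10.4 to 11.95 CPM in knockout libraries and 2.24 to 3.57 CPM in parent libraries, and the part of these marker differences in the comparisons was not tested. Parent labelled prexasertib replicate 1 stood apart: intronic reads were 30.3% of its exonic plus intronic reads, against 23.9 to 26.4% in the other 11 libraries, and without it the same numbers of AP-1 members were called in every exonic comparison except 1, named below. Since RNA was taken from whole cultures, fewer cells with a transcript and less of it per cell cannot be told apart.

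In parent cells, 7 of the 10 members were lower in libraries labelled prexasertib than in libraries labelled DMSO (JUN, JUNB, JUND, FOS, FOSB, FOSL2 and ATF3), and BATF3 was higher. Of the 23045 genes tested, 18.2% were called lower and 18.2% higher in this comparison, and 36.3% in either direction. In knockout cells, 6 members were lower (JUN, JUNB, JUND, FOS, FOSB and ATF3) and 0 higher, against 6.83% of genes called lower and 6.11% called higher. The median log2 fold change of the 10 members was -1.65 in parent cells and -0.34 in knockout cells, where the median over all genes was 0.04 and -0.00. The CPM of the treatments did not overlap for 8 members in parent cells (7 lower, 1 higher) and for 7 in knockout cells (6 lower, 1 higher), against 43.3% of all genes in parent cells (21.8% lower, 21.6% higher) and 34.3% in knockout cells (17.4% lower, 16.9% higher). Calls rest on an adjusted p of at most 0.05 in edgeR's quasi-likelihood test of exonic reads, with Benjamini-Hochberg adjustment over all genes tested. Tests given below as on TPM use limma and the authors' TPM of the whole gene, not of exons alone. With TPM plus 1 they called 7699 of 23045 genes higher and 1931 lower in parent cells, and 778 and 1060 in knockout cells. For knockout against parent they called 10856 higher and 1387 lower under the DMSO label, and 6196 and 1147 under the prexasertib label. The difference between lines was above 0 for 767 genes and below for 3037. Counts on TPM stand beside these, not beside the edgeR shares.

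**Figure D1:**
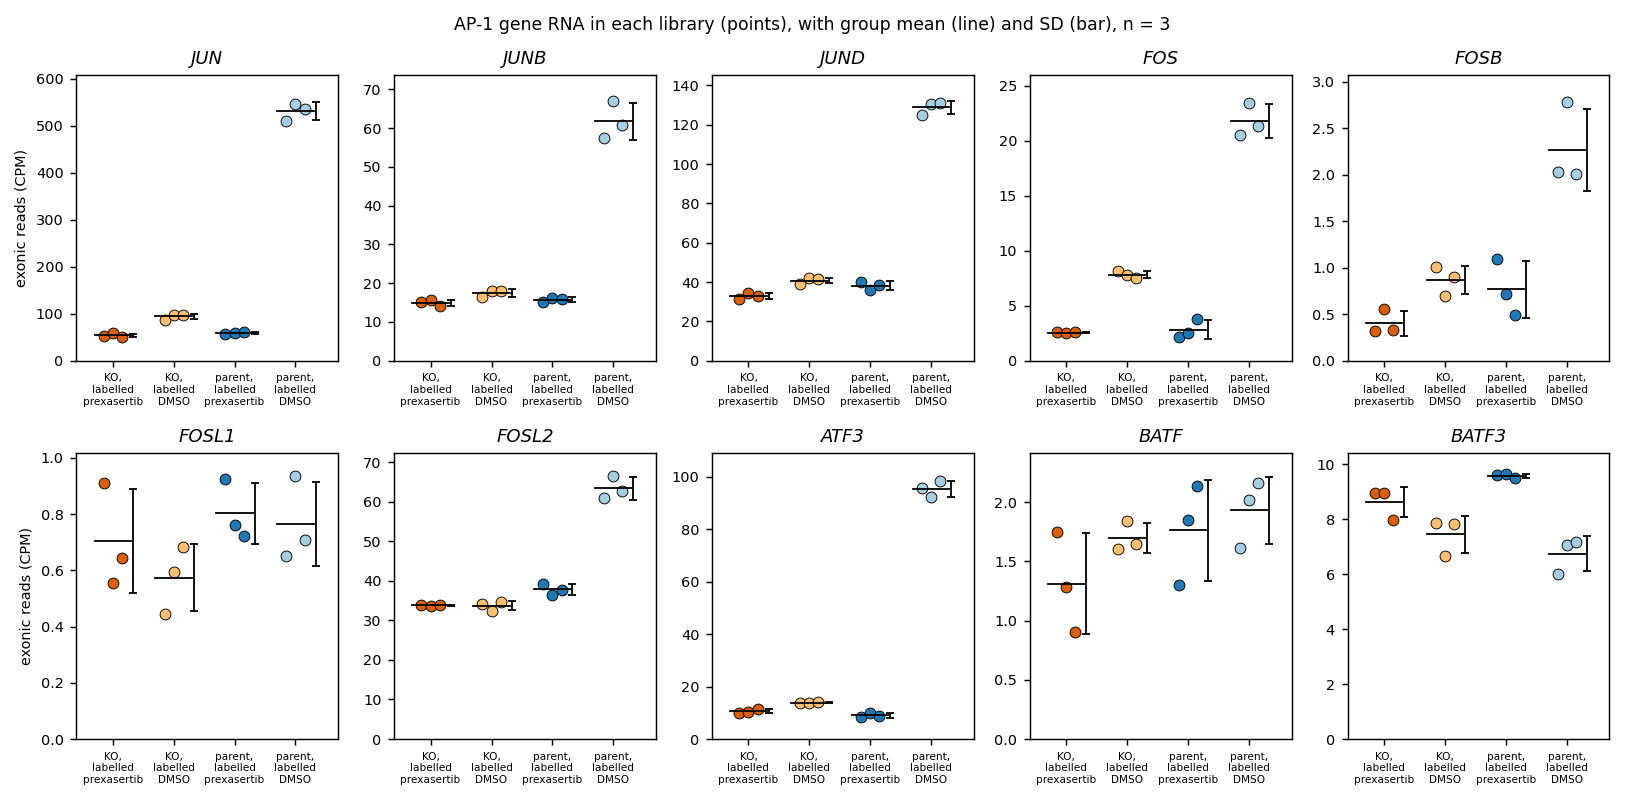
Exonic reads of each of the 10 AP-1 genes in CPM (vertical axis, linear from 0, scaled per gene), in knockout cells labelled prexasertib, knockout cells labelled DMSO, parent cells labelled prexasertib and parent cells labelled DMSO. Points are single libraries, lines group means and bars SDs (n = 3). For JUN, JUNB, JUND, FOS, FOSB, FOSL2 and ATF3 the 3 parent libraries labelled DMSO lie above the other 9.

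JUN encodes c-Jun, the subunit that gives AP-1 its strongest activating partner, and lies on chromosome 1 at 59246465 to 59249785 in hg19 as a gene of 1 uninterrupted exon. Its RNA stood at 51.8, 58.1 and 51.1 CPM in knockout libraries labelled prexasertib and at 87.3, 96.9 and 98.3 CPM in knockout libraries labelled DMSO. Parent libraries held 57.0, 58.5 and 61.7 CPM when labelled prexasertib and 509, 545 and 536 CPM when labelled DMSO. The parent libraries labelled DMSO were thus high and the other groups low, with no overlap between treatments in either line. JUN was lower by a log2 fold change of -3.17 (SE 0.06, edgeR adjusted p = 2.9e-22) in parent cells, a ratio of mean CPM (DMSO label over prexasertib label, as in the ratios below) of 8.98, and by -0.81 (SE 0.06, adjusted p = 1.1e-10) in knockout cells, a ratio of 1.75. The change in knockout cells less that in parent cells was 2.36 (SE 0.08, edgeR adjusted p = 2.2e-16).

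JUNB, a JUN protein that activates more weakly than c-Jun and can oppose it, lies on chromosome 19 at 12902310 to 12904124 (hg19), inside the span of HOOK2. Counts were 15.05, 15.6 and 14.19 CPM in knockout libraries labelled prexasertib, 16.3, 18.0 and 18.1 CPM in knockout libraries labelled DMSO, 15.1, 16.2 and 16.0 CPM in parent libraries labelled prexasertib, and 57.5, 67.0 and 60.8 CPM in parent libraries labelled DMSO. Only the parent libraries labelled DMSO stood far from the rest, and in knockout cells the treatments were close but did not overlap. JUNB was lower in parent cells, with a log2 fold change of -1.97 (SE 0.07, edgeR adjusted p = 5.8e-18), and slightly lower in knockout cells, with -0.22 (SE 0.07, adjusted p = 0.032). The knockout call was lost without any 1 of 5 libraries (parent labelled DMSO replicate 3, knockout labelled DMSO replicates 2 and 3, knockout labelled prexasertib replicates 1 and 3; edgeR adjusted p of 0.052 to 0.15), with all reads of the gene (0.086) and on TPM with limma (0.068 and 0.070). The lines differed by 1.75 (SE 0.10, adjusted p = 7.6e-13).
Every JUNB read also lies in HOOK2, and the files state no strand, so the reads of these genes cannot be told apart where they overlap. HOOK2, a microtubule linker gene, averaged 7.26 CPM and 8.58 CPM in knockout libraries labelled prexasertib and DMSO, and 7.45 CPM and 17.1 CPM in parent libraries with those labels. It was lower in parent cells by a log2 fold change of -1.20 (edgeR adjusted p = 2.5e-11), and its part in the JUNB values was not tested.

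JUND, the JUN gene that most cell types express without a stimulus, lies on chromosome 19 at 18390563 to 18392432 (hg19) and also has 1 exon. In knockout cells it had 31.4, 34.5 and 32.9 CPM in libraries labelled prexasertib and 39.1, 41.9 and 41.3 CPM in libraries labelled DMSO. In parent cells the values were 40.3, 36.1 and 38.3 CPM under the prexasertib label and 125, 131 and 131 CPM under the DMSO label. Treatments did not overlap in either line, and the gap was wide in parent cells alone. The log2 fold change was -1.75 (SE 0.06, edgeR adjusted p = 1.3e-18) in parent cells and -0.31 (SE 0.06, adjusted p = 3.2e-04) in knockout cells, a difference between lines of 1.44 (SE 0.08, adjusted p = 6.0e-13).

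The bases before the start sites of 4 members with lower RNA in both lines are printed to show which AP-1 and CREB type motifs they carry. They are the 250 bases upstream of the start in RefSeq on GRCh38.p14, written 5′ to 3′ on the gene's strand, for JUN (chr1:58784048-58784297, minus strand), FOS (chr14:75278578-75278827, plus strand), ATF3 (the first of its 2 starts, chr1:212565157-212565406, plus strand) and JUND (chr19:18281623-18281872, minus strand). Capitals mark TGACATCA, TGACGTCA, or TGACG and its complement CGTCA.
JUN: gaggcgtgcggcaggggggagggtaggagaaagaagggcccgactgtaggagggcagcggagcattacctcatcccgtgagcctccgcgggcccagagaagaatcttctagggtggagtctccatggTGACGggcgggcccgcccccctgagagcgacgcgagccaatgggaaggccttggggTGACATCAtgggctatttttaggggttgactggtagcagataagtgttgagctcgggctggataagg
ATF3: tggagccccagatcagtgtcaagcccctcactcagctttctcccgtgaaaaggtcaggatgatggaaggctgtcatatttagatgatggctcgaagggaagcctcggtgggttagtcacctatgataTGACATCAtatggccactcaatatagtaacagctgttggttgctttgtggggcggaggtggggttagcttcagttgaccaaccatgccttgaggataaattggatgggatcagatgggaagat
FOS: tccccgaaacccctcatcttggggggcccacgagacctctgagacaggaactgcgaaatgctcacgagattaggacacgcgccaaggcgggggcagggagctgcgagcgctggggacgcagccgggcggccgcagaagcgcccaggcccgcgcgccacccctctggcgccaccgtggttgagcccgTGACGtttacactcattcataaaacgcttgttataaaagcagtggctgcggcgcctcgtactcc
JUND: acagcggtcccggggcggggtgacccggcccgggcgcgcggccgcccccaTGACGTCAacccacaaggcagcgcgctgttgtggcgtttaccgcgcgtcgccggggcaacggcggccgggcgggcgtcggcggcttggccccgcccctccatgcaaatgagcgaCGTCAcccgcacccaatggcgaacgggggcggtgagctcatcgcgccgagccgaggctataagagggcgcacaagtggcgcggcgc
Of the 10 members, 8 had an entry in the promoter table. JUN and ATF3 hold TGACATCA, a variant of the AP-1 and ATF site, which begins 67 bases before the JUN start and 123 before the first ATF3 start. This motif, searched on both strands, was found in 2.37% of the 35116 upstream windows of the same length. It was not matched at the second ATF3 start, and which start these cells use was not tested. The full CREB site TGACGTCA begins 200 bases before the JUND start and was in 1.65% of windows. Its first part TGACG, which overlaps that site in JUND, was found in 6 members (JUN, JUNB, JUND, FOS, FOSB and FOSL2) and in 21.2% of windows, and in FOS it begins 64 bases before the start. The classical AP-1 site TGACTCA was in 4.203% of windows and in 0 of the 8 members, and the CArG box in 1.16% and 0. Sites farther than 250 bases upstream were not searched, so these members may carry either motif there. TATAAA, read on the gene's strand, was found upstream of FOS, FOSB, JUNB and the second ATF3 start, and in 6.80% of windows. A match describes the letters of the window and shows no binding.

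FOS encodes c-Fos, the partner with which c-Jun forms the most stable AP-1 dimer, and lies on chromosome 14 at 75745477 to 75748933 (hg19). Knockout libraries labelled prexasertib held 2.59, 2.49 and 2.58 CPM of FOS, and knockout libraries labelled DMSO held 8.14, 7.79 and 7.502 CPM. Parent libraries labelled prexasertib held 2.18, 2.4996 and 3.77 CPM, and parent libraries labelled DMSO held 20.5, 23.5 and 21.3 CPM. The 6 libraries labelled prexasertib shared a low range whatever the line, and both groups labelled DMSO lay above it. FOS was lower by a log2 fold change of -2.97 (SE 0.13, edgeR adjusted p = 5.5e-15) in parent cells, a ratio of means of 7.73, and by -1.61 (SE 0.13, adjusted p = 3.3e-09) in knockout cells, a ratio of 3.06. In knockout cells the ratio for FOS was thus larger than the 1.75 of JUN, while in parent cells the JUN ratio was the larger. The lines differed by 1.35 (SE 0.19, edgeR adjusted p = 1.1e-05).

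FOSB, the FOS protein whose shortened splice form builds up after repeated stimulation of neurons, lies on chromosome 19 at 45971253 to 45978437 (hg19) within the span of ERCC1. It was scarce, with 18 to 190 exonic reads per library. It had 0.315, 0.556 and 0.332 CPM in knockout libraries labelled prexasertib and 1.01, 0.701 and 0.897 CPM in knockout libraries labelled DMSO, against 1.10, 0.714 and 0.488 CPM in parent libraries labelled prexasertib and 2.03, 2.78 and 2.004 CPM in parent libraries labelled DMSO. Treatments did not overlap in either line. The log2 fold change was -1.55 (SE 0.26, edgeR adjusted p = 3.1e-05) in parent cells and -1.11 (SE 0.30, adjusted p = 0.013) in knockout cells. The knockout call was lost without knockout labelled DMSO replicate 1, knockout labelled prexasertib replicate 1 or knockout labelled prexasertib replicate 3 (edgeR adjusted p of 0.073 to 0.079). The difference between lines, 0.44, missed the threshold (adjusted p = 0.52), with a 95% interval (1.96 SE either side, as in the intervals below) of -0.35 to 1.23. ERCC1, a DNA repair nuclease gene whose reads in the overlap cannot be told from those of FOSB, averaged 78.3 and 76.4 CPM in knockout libraries labelled prexasertib and DMSO, and 88.8 and 76.3 CPM in parent libraries with those labels.

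FOSL1 encodes Fra-1, a FOS protein without the activation domain of c-Fos, at chromosome 11, 65659520 to 65668044 (hg19). It had 32 to 64 exonic reads per library. Knockout libraries held 0.910, 0.556 and 0.645 CPM when labelled prexasertib and 0.446, 0.594 and 0.682 CPM when labelled DMSO. Parent libraries held 0.925, 0.763 and 0.721 CPM when labelled prexasertib and 0.651, 0.936 and 0.707 CPM when labelled DMSO. The groups overlapped in both lines, and neither treatment comparison passed the test. The intervals of the log2 fold change ran from -0.47 to 0.61 in parent cells and from -0.25 to 0.86 in knockout cells.

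FOSL2 encodes Fra-2, the other short FOS protein, on chromosome 2 at 28615315 to 28640179 (hg19). Knockout libraries labelled prexasertib held 33.9, 33.5 and 33.9 CPM, and knockout libraries labelled DMSO held 34.2, 32.5 and 34.6 CPM. Parent libraries labelled prexasertib held 39.3, 36.4 and 37.7 CPM, and parent libraries labelled DMSO held 60.9, 66.6 and 62.8 CPM. The treatments overlapped in knockout cells and lay apart in parent cells. The log2 fold change was -0.75 (SE 0.05, edgeR adjusted p = 2.3e-11) in parent cells and 0.00 (SE 0.05, adjusted p = 0.99) in knockout cells, with a knockout interval of -0.10 to 0.11. The lines differed by 0.75 (SE 0.08, adjusted p = 8.6e-08).

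ATF3, a stress-induced bZIP protein that represses as a homodimer and joins JUN proteins in heterodimers, lies on chromosome 1 at 212738676 to 212794119 (hg19). It had 9.99, 10.19 and 11.5 CPM in knockout libraries labelled prexasertib and 13.8, 13.8 and 14.1 CPM in knockout libraries labelled DMSO. Parent libraries had 8.29, 10.1 and 8.93 CPM when labelled prexasertib, and 95.8, 92.1 and 98.2 CPM when labelled DMSO. The parent libraries labelled DMSO exceeded every other library several times over, and treatments did not overlap in either line. ATF3 had the largest exonic change among the 10 members in parent cells, a log2 fold change of -3.39 (SE 0.07, edgeR adjusted p = 9.1e-22) or a ratio of means of 10.5. In knockout cells it was -0.40 (SE 0.07, adjusted p = 2.7e-04), a ratio of 1.32. The difference between lines was 2.99 (SE 0.10, edgeR adjusted p = 1.1e-16), also the largest of the 10.

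BATF and BATF3 encode small bZIP proteins that pair with JUN proteins and bind with IRF factors in lymphocytes and dendritic cells. BATF, on chromosome 14 at 75988768 to 76013358 (hg19), had 1.75, 1.29 and 0.903 CPM in knockout libraries labelled prexasertib and 1.61, 1.84 and 1.65 CPM in knockout libraries labelled DMSO. Parent libraries had 1.30, 1.85 and 2.14 CPM under the prexasertib label and 1.61, 2.02 and 2.16 CPM under the DMSO label. The ranges of the 4 groups overlapped one another, and the log2 fold change missed the threshold in parent cells (-0.13, interval -0.55 to 0.28) and in knockout cells (-0.37, interval -0.80 to 0.06).
BATF3, on chromosome 1 at 212859760 to 212873327 (hg19), was the only member called higher under the prexasertib label. It had 8.96, 8.94 and 7.98 CPM in knockout libraries labelled prexasertib and 7.86, 6.66 and 7.81 CPM in knockout libraries labelled DMSO, against 9.59, 9.63 and 9.50 CPM in parent libraries labelled prexasertib and 6.00, 7.05 and 7.17 CPM in parent libraries labelled DMSO. Libraries labelled prexasertib lay above those labelled DMSO in both lines, with a narrow gap in knockout cells. The log2 fold change was 0.51 (SE 0.10, edgeR adjusted p = 1.5e-04) in parent cells and 0.21 (SE 0.10, adjusted p = 0.17) in knockout cells, where it passed with all reads of the gene (0.29, adjusted p = 0.037). The difference between lines was -0.30 (SE 0.14, adjusted p = 0.16).

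The change under the prexasertib label differed between the lines for 6 of the 10 members, JUN, JUNB, JUND, FOS, FOSL2 and ATF3, each lower by more in parent cells. Across all genes, 9.53% were called in that direction and 7.32% in the other, 16.8% in all. The median of the difference was 1.05 over the members and -0.03 over all genes. FOSB, FOSL1, BATF and BATF3 missed the threshold.

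**Figure D2:**
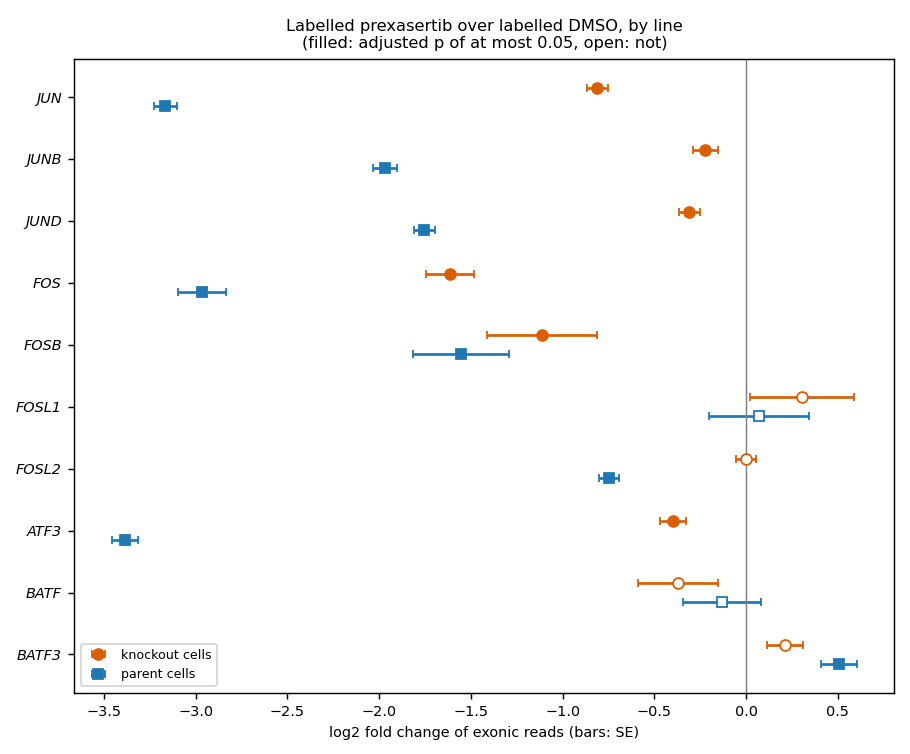
Log2 fold change of exonic reads, labelled prexasertib over labelled DMSO (horizontal axis), for each AP-1 gene in knockout cells (circles) and parent cells (squares), with SE bars and filled symbols for adjusted p of at most 0.05. JUN and ATF3 lie at -3.17 and -3.39 in parent cells and at -0.81 and -0.40 in knockout cells, while FOSL1 and BATF are open in both lines.

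The lines were then compared under each label. In libraries labelled DMSO, 7 of 10 members were lower in knockout than in parent cells and 0 were higher. Among all genes, 20.4% were called lower, 19.6% higher and 40% in either direction. The lines did not overlap for 7 members, all lower, against 53.6% of genes (27% lower, 26.6% higher). This comparison and the treatment comparison in parent cells share the parent libraries labelled DMSO. ATF3 (-2.78), JUN (-2.49), JUNB (-1.82) and JUND (-1.66) led by log2 fold change, followed by FOS (-1.48), FOSB (-1.38) and FOSL2 (-0.91), with edgeR adjusted p from 1.1e-20 to 7.9e-05. FOSL1 (-0.43), BATF (-0.18) and BATF3 (0.15) missed the threshold, and BATF3 passed as higher on TPM with limma (adjusted p = 0.0048 and 0.0026). With TPM plus 1 and plus 0.1, 10856 and 11056 of 23045 genes were called higher here, and the medians of all genes were 0.14 and 0.29.

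In libraries labelled prexasertib, the lines were close. JUND (-0.21, edgeR adjusted p = 0.0047), FOSB (-0.94, 0.023) and FOSL2 (-0.16, 0.026) were lower in knockout cells, and ATF3 (0.21, 0.033) was higher. Among all genes, 13.5% were called lower, 14.5% higher and 28.1% in either direction, so 4 of 10 members is near the background. The lines did not overlap for JUND, FOSL2 and BATF3, all 3 lower, against 38.1% of genes (18.6% lower, 19.4% higher). JUN had a log2 fold change of -0.14 (adjusted p = 0.083), JUNB of -0.08 and FOS of -0.13. These calls moved with single libraries. ATF3 lost its call without parent labelled prexasertib replicate 1 or 3 or knockout labelled prexasertib replicate 3 (edgeR adjusted p of 0.14, 0.078 and 0.18), with only the 2 groups compared in the fit (0.11), with all reads of the gene (0.17) and on TPM plus 1 (limma, 0.13). FOSB lost it without parent labelled prexasertib replicate 1 or knockout labelled prexasertib replicate 1 or 3 (0.18, 0.10 and 0.096), with only the groups compared (0.086) and on TPM (0.21 and 0.15). FOSL2 lost it without any 1 of 6 libraries (parent labelled prexasertib replicates 1 and 3, knockout labelled DMSO replicate 1, and the 3 knockout libraries labelled prexasertib; 0.053 to 0.075), without a filter on low counts (0.098), with only the groups compared (0.11) and with all reads (0.14), and its sign turned on TPM (0.02 and 0.03). JUN passed without parent labelled prexasertib replicate 1 or knockout labelled prexasertib replicate 2 (0.038 and 0.016) and with exonic reads outside other genes (0.032), and BATF without replicate 1 of either group (0.042 and 0.044). On TPM, JUND lost its call too (-0.02, limma adjusted p = 0.86).

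**Figure D3:**
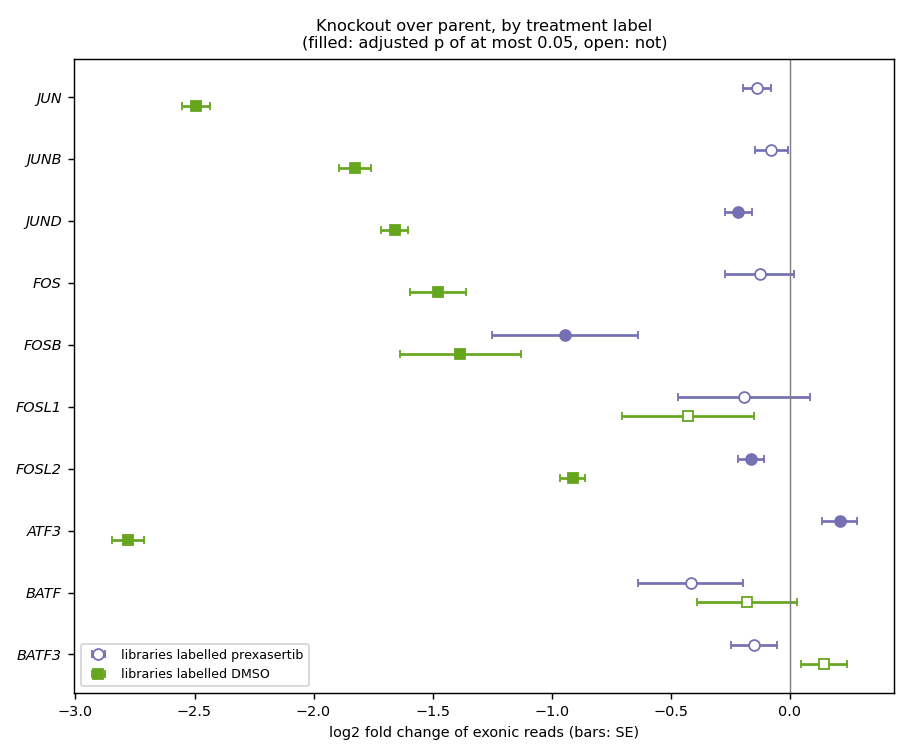
Log2 fold change of exonic reads, knockout over parent (horizontal axis), for each AP-1 gene in libraries labelled prexasertib (circles) and labelled DMSO (squares), with SE bars and filled symbols for adjusted p of at most 0.05. Under the DMSO label ATF3 lies at -2.78 and JUN at -2.49; under the prexasertib label they lie at 0.21 and -0.14.

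Levels can be compared between members only per length, which the authors' exonic TPM (transcript abundance scaled by exonic length and by the library total) allows. Summed over the 10 genes, exonic TPM was 70.4 ± 2.55 in knockout cells labelled prexasertib, 95.1 ± 4.98 in knockout cells labelled DMSO, 70.4 ± 1.77 in parent cells labelled prexasertib and 320 ± 4.09 in parent cells labelled DMSO (mean ± SD, n = 3 each). The JUN genes made up most of the RNA of these 10 genes in every group. JUN ranged from 20.6 ± 1.44 TPM in knockout cells labelled prexasertib, 35.8 ± 2.67 in knockout cells labelled DMSO and 20.4 ± 0.244 in parent cells labelled prexasertib to 166 ± 2.06 in parent cells labelled DMSO.
JUND and JUN led the order in all 4 groups, followed by JUNB. JUND (22.5 ± 1.22 TPM) stood first in knockout cells labelled prexasertib, where its range overlapped that of JUN, and also in parent cells labelled prexasertib (23.5 ± 1.87 TPM), while JUN stood first in both groups labelled DMSO. ATF3, at 24.8 ± 1.43 TPM, came next after JUNB in parent cells labelled DMSO, and FOSL2 came next in the other groups, at 6.03, 5.95 and 6.08 TPM. FOS had 0.994 ± 0.266 TPM in parent cells labelled prexasertib, below BATF at 2.06 ± 0.435 TPM, and 6.99 ± 0.336 TPM in parent cells labelled DMSO, above BATF at 2.04 ± 0.221 TPM. FOSL1 and FOSB held the last places, with group means below 0.5 TPM and single libraries up to 0.607 TPM (FOSL1) and 0.508 TPM (FOSB), and their ranges overlapped in parent cells labelled DMSO. No other neighbours in these orders overlapped.
JUN held 29.3% of the summed exonic TPM in knockout cells labelled prexasertib, 37.6% in knockout cells labelled DMSO, 29.0% in parent cells labelled prexasertib and 52.0% in parent cells labelled DMSO. With the authors' gene TPM, which divides by the whole gene length with introns, the same shares were 35.3 ± 0.882%, 43.5 ± 0.818%, 34.8 ± 1.17% and 58.1 ± 0.218% (SD, n = 3 each). The order of the groups was the same on both scales.

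**Figure D4:**
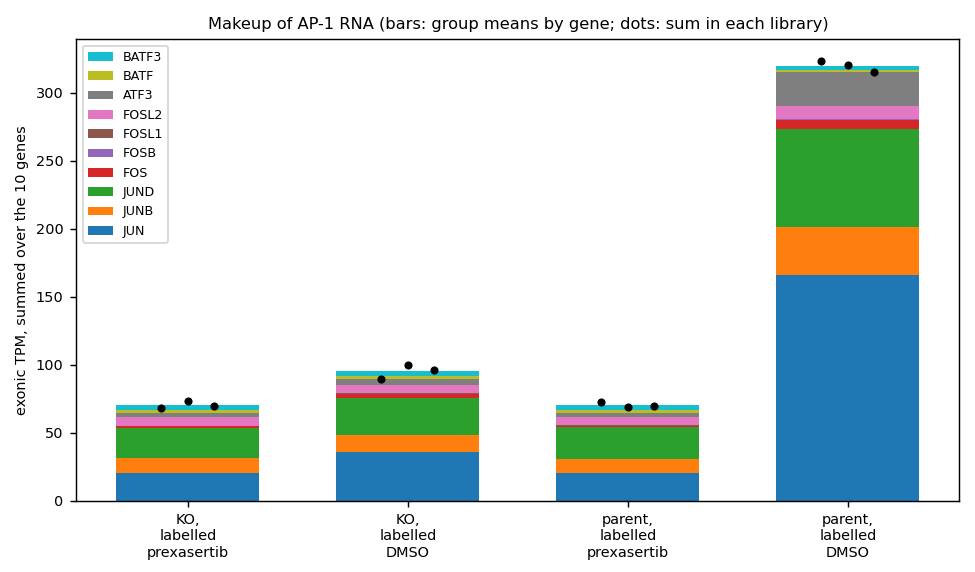
Exonic TPM of the 10 AP-1 genes stacked as group means (bars, linear from 0), with the sum in each library as dots, for knockout and parent cells labelled prexasertib and DMSO. The sum is 320 TPM in parent cells labelled DMSO and 70.4 to 95.1 TPM in the other groups, and JUN is the largest segment of the parent bar labelled DMSO.

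Intronic reads come largely from RNA that is not yet spliced, and were counted separately in the files. JUN, JUNB and JUND have no intron, which leaves 7 members. In parent cells 4 of these 7 were called, with FOS, FOSB and ATF3 lower in libraries labelled prexasertib and BATF3 higher, where 30.8% of the 19852 genes tested on intronic reads were called (3101 lower, 3021 higher). In knockout cells 3 were called, with FOSB and ATF3 lower and BATF3 higher, where 12% of genes were called (1220 lower, 1157 higher).

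ATF3 introns gave 14.7, 12.8 and 13.7 CPM in knockout libraries labelled prexasertib and 21.8, 19.2 and 22.4 CPM in knockout libraries labelled DMSO, against 11.7, 15.5 and 15.6 CPM in parent libraries labelled prexasertib and 54.0, 56.6 and 49.6 CPM in parent libraries labelled DMSO. Treatments did not overlap in either line, and the parent libraries labelled DMSO were again the highest. The intronic log2 fold change was -1.91 (SE 0.11, edgeR adjusted p = 2.9e-11) in parent cells and -0.62 (SE 0.12, adjusted p = 8.9e-04) in knockout cells, a difference of 1.29 (SE 0.16, adjusted p = 2.0e-05). Intronic reads made up 31.0 ± 2.43% of the ATF3 reads in knockout cells labelled prexasertib, 34.5 ± 1.46% in knockout cells labelled DMSO, 37.0 ± 1.51% in parent cells labelled prexasertib and 15.4 ± 1.40% in parent cells labelled DMSO (SD, n = 3 each). ATF3 was the only member of the 7 whose intronic change differed between lines, where 9.84% of genes were called (1155 in that direction, 798 in the other). The FOS difference of 1.93 missed the threshold (adjusted p = 0.14) and passed without parent labelled prexasertib replicate 2 (3.07, adjusted p = 0.022).

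How bases that are intronic in only some transcripts were counted is not given in the sources used here. The part of FOS counted as intronic was 219 bases, against 3238 counted as exonic, with 2 to 69 reads per library. It gave 0.151, 0.257 and 0.212 CPM in knockout libraries labelled prexasertib and 0.728, 0.432 and 0.638 CPM in knockout libraries labelled DMSO. Parent libraries gave 0.0802, 0.459 and 0.121 CPM when labelled prexasertib and 2.83, 2.51 and 2.04 CPM when labelled DMSO. Its order of groups matched that of the exonic reads, with parent libraries labelled DMSO highest, and the log2 fold change was -3.45 (SE 0.49, edgeR adjusted p = 1.5e-05) in parent cells and -1.52 (SE 0.56, adjusted p = 0.084) in knockout cells, where it passed without parent labelled prexasertib replicate 1 (adjusted p = 0.042). FOSB intronic reads fell by 1.85 (adjusted p = 4.1e-04) and 1.53 (adjusted p = 0.015) on the log2 scale in parent and knockout cells by the same test, and the knockout call was lost without knockout labelled DMSO replicate 3 or knockout labelled prexasertib replicate 1 (0.084 and 0.081).
For FOSL2, exonic and intronic reads parted. Its intronic reads gave 16.0, 13.96 and 18.1 CPM in knockout libraries labelled prexasertib, 14.3, 13.9 and 12.8 CPM in knockout libraries labelled DMSO, 18.2, 15.9 and 14.19 CPM in parent libraries labelled prexasertib, and 15.6, 17.6 and 18.9 CPM in parent libraries labelled DMSO. The groups overlapped within both lines, and the intronic log2 fold change in parent cells was -0.10 (interval -0.34 to 0.14), which does not reach the exonic value of -0.75. The span of FOSL2 overlaps AC104695.3 and RP11-373D23.2, and 91.4% of its exonic reads lay outside other genes. Those of ATF3 and BATF3 overlap RN7SL512P and RNU6-423P. Intronic reads lying in other genes were not set apart, and their part in these values was not tested. BATF3 introns were higher under the prexasertib label in parent cells (0.37, edgeR adjusted p = 0.029) and in knockout cells (0.47, adjusted p = 0.015). The parent call for BATF3 was lost without parent labelled DMSO replicate 1 or 2 or parent labelled prexasertib replicate 1 or 2 (0.065 to 0.12) and with only the groups compared (0.085), and the knockout call without knockout labelled DMSO replicate 1 or 2 or knockout labelled prexasertib replicate 2 (0.063 to 0.069). BATF and FOSL1 introns passed in neither line.

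**Figure D5:**
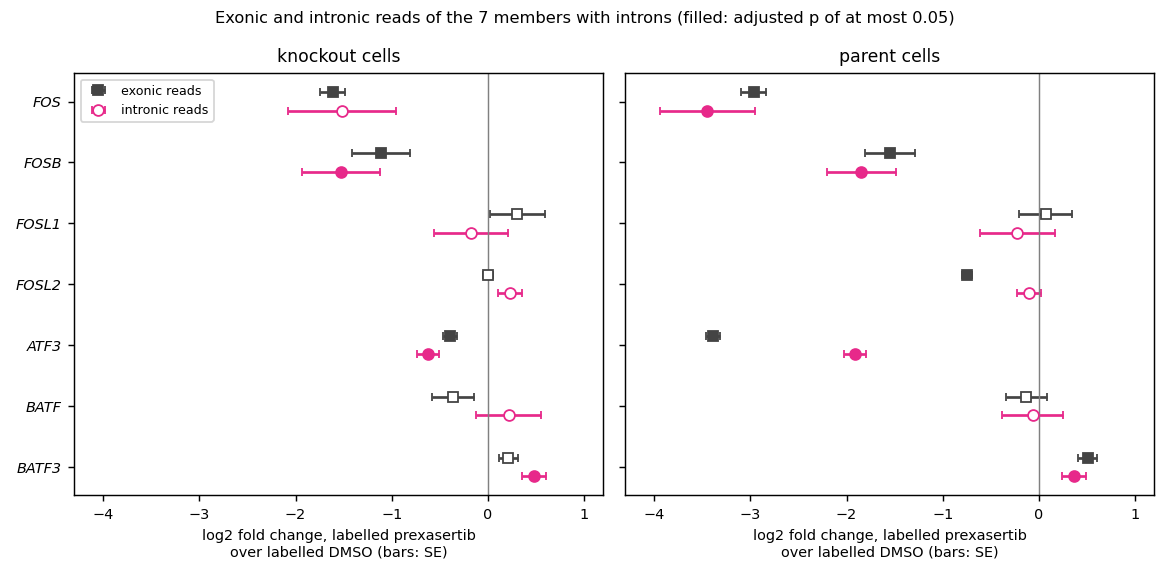
Log2 fold change of exonic (squares) and intronic reads (circles), labelled prexasertib over labelled DMSO, for the 7 AP-1 genes with introns, in knockout cells (left) and parent cells (right), with SE bars and filled symbols for adjusted p of at most 0.05. In parent cells ATF3 lies at -3.39 in exons and -1.91 in introns, and FOSL2 at -0.75 and -0.10.

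Between the lines, intronic reads of 4 members were lower in knockout than in parent cells under the DMSO label: FOS (-2.03), ATF3 (-1.34), FOSB (-0.98) and FOSL2 (-0.34), with edgeR adjusted p from 5.1e-09 to 0.043, where 30.3% of genes were called (3186 lower, 2820 higher). The FOSB call was lost without parent labelled DMSO replicate 2 or 3 or knockout labelled DMSO replicate 1 or 2 (0.11 to 0.12). The FOSL2 call was lost without any 1 of 6 libraries (parent labelled DMSO replicates 2 and 3, the 3 knockout libraries labelled DMSO and knockout labelled prexasertib replicate 1; 0.059 to 0.19), without a filter on low counts (0.083) and with DESeq2 (0.061). Under the prexasertib label, 0 of 7 members passed in edgeR's test, 0 had an unadjusted p of at most 0.05 and 0 passed in DESeq2, in a comparison where 18.8% of genes were called (1818 lower, 1910 higher).

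The surroundings of AP-1 were described with 5 lists of genes. Among other bZIP genes, which can pair with AP-1 proteins, 19 of 23 were tested, and in parent cells 13 were lower and 3 higher, where 18.2% of all genes were called in each direction, with a median log2 fold change of -0.39. On TPM 7 were lower, where TPM plus 1 called 1931 of 23045 genes lower. In knockout cells 2 were lower and 3 higher, beside 6.83% and 6.11% of all genes, with a median of -0.03. The lower count was 6 without parent labelled prexasertib replicate 1 and with only the groups compared, 1 without knockout labelled DMSO replicate 3 or knockout labelled prexasertib replicate 1 or 2, and 0 on TPM. Calls over all genes rose too, to 2276 of 23625 lower without parent labelled prexasertib replicate 1. With only the groups compared, 2476 of 21529 were lower. CREM, a CREB family gene that also makes repressor forms, averaged 13.21 ± 1.30 CPM in knockout cells labelled prexasertib and 15.1 ± 0.796 CPM in knockout cells labelled DMSO, against 10.9 ± 0.698 and 31.2 ± 1.598 CPM in parent cells (SD, n = 3 each). It was lower in parent cells (-1.53, SE 0.08, edgeR adjusted p = 1.7e-14). DDIT3, the CHOP gene of the unfolded protein response, averaged 15.5 ± 0.983 and 14.6 ± 0.179 CPM in knockout cells labelled prexasertib and DMSO, and 17.2 ± 0.484 and 47.1 ± 1.05 CPM in parent cells. Like JUN and ATF3, both were highest in parent libraries labelled DMSO, and both changed by less in knockout cells, by 1.33 and 1.54 (edgeR adjusted p = 1.8e-09 and 1.7e-12). Across this list, 9 genes were called in that direction between lines (5 on TPM) and 1 in the other, beside 9.53% and 7.32% of all genes. The 1 was lost without any 1 of 7 libraries (parent labelled DMSO replicates 1 and 3, parent labelled prexasertib replicate 3, the 3 knockout libraries labelled DMSO and knockout labelled prexasertib replicate 3) and with all reads. In knockout against parent cells, 12 of the 19 were lower and 1 higher under the DMSO label, beside 20.4% and 19.6% of all genes. There 7 were higher on TPM, where TPM plus 1 called 10856 of 23045 genes higher. Under the prexasertib label 4 were lower and 4 higher, beside 13.5% and 14.5%.

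The MAP kinase list, which holds the ERK, JNK and p38 kinases and the kinases above them that signal to AP-1, had a median log2 fold change of 0.13 in parent cells and -0.02 in knockout cells. Of 22 genes tested, 8 were higher and 1 lower in parent cells (18.2% of all genes in each direction), and 2 were higher and 1 lower in knockout cells (6.11% and 6.83% of all genes). In parent cells 5 were higher without parent labelled DMSO replicate 2. There 3 were lower without parent labelled prexasertib replicate 1, and 2 without any 1 of 7 libraries (parent labelled DMSO replicates 1 and 2, parent labelled prexasertib replicate 2, knockout labelled DMSO replicates 1 and 2, knockout labelled prexasertib replicates 2 and 3), without a filter, with all reads and with exonic reads outside other genes, and 0 on TPM. In knockout cells 1 was lower, but 2 with only the groups compared and 0 with exonic reads outside other genes. With only the groups compared, 2476 of 21529 genes were lower there. MAP3K1, which activates the JNK branch, was lower in parent cells (-0.50, SE 0.06, edgeR adjusted p = 1.7e-07), a call that was lost on TPM (limma adjusted p = 0.19 and 0.21). MAP2K6, which activates p38, was higher in parent cells (0.50, edgeR adjusted p = 3.8e-05) and in knockout cells (0.33, adjusted p = 0.0099), and MAP2K2, an ERK activator, was higher in parent cells (0.30, adjusted p = 5.5e-05). The knockout call of MAP2K6 was lost without knockout labelled DMSO replicate 3 or knockout labelled prexasertib replicate 3 (0.069 and 0.097), each of which left 1 gene of the list higher there, and on TPM (limma adjusted p = 0.16 and 0.18), which left 0.
Of 14 promoter factors and coactivators of immediate early genes, 3 were higher and 4 lower in parent cells and 0 were higher and 2 lower in knockout cells, where the shares of all genes were those just given. On TPM 1 was lower in parent cells. In knockout cells 1 was higher and 5 were lower without parent labelled prexasertib replicate 1 and with only the groups compared. Those fits called 2267 genes higher and 2276 lower of 23625, and 2402 and 2476 of 21529, in knockout cells. There 1 was lower without any 1 of 6 libraries (parent labelled DMSO replicate 3, the 3 knockout libraries labelled DMSO, knockout labelled prexasertib replicates 2 and 3), with RLE size factors, with exonic reads outside other genes and on TPM. Against parent cells, 8 of the 14 were lower in knockout cells under the DMSO label and 9 under the prexasertib label, beside 20.4% and 13.5% of all genes, and 0 were higher under either. On TPM 2 were lower under each label and 4 were higher under the DMSO label. Of 23045 genes, TPM plus 1 called 10856 higher and 1387 lower under that label. With exonic reads outside other genes 1 was higher under the DMSO label. The 14 include MEF2A (-0.46 in parent cells, lost on TPM at 0.47 and 0.48), the CREB coactivator CRTC2 (-0.81 in parent and -0.39 in knockout cells) and ELK1, a serum response factor partner (0.49 in parent cells). Of 9 genes for turnover of AP-1 proteins, 3 were higher and 2 lower in parent cells (1 lower with all reads), beside 18.2% of all genes in each direction. On TPM 6 were higher and 0 lower, where TPM plus 1 called 7699 of 23045 genes higher and 1931 lower. In knockout cells 0 passed in edgeR's test or DESeq2, 1 was higher and 0 lower at an unadjusted p of at most 0.05, and 1 was higher without parent labelled prexasertib replicate 1 and with only the groups compared, and 1 lower without knockout labelled prexasertib replicate 2. Over all genes, 2267 of 23625 were higher there without parent labelled prexasertib replicate 1, and 2402 of 21529 with only the groups compared. Of this list, RFWD2, the COP1 ubiquitin ligase, had a log2 fold change of 0.34 and its scaffold CUL4A of 0.28 in parent cells (edgeR adjusted p = 1.5e-05 and 5.6e-05).

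Genes known as AP-1 targets were mixed. Of 28 listed, 17 were tested, with 7 lower and 3 higher in parent cells (18.2% of all genes in each direction) and 2 lower and 3 higher in knockout cells (6.83% and 6.11% of all genes). On TPM 5 were higher in parent cells, where TPM plus 1 called 7699 of 23045 genes higher. In knockout cells 4 were lower without parent labelled prexasertib replicate 1, 5 with only the groups compared and 0 with exonic reads outside other genes. In the same order, these fits called 2276 of 23625, 2476 of 21529 and 1307 of 15906 genes lower. The change in knockout cells less that in parent cells was above 0 for 7 targets and below 0 for 0 targets by edgeR's test, beside 9.53% and 7.32% of all genes. Below 0 there was 1 target at an unadjusted p of at most 0.05, 0 in DESeq2, 1 with a replicate block, and 2 without parent labelled prexasertib replicate 1 and on TPM. PLAU, the urokinase protease gene with AP-1 sites in its enhancer, averaged 1.05 ± 0.216 CPM in knockout cells labelled prexasertib and 2.19 ± 0.233 CPM in knockout cells labelled DMSO, against 1.22 ± 0.341 and 14.9 ± 0.386 CPM in parent cells (SD, n = 3 each). Its log2 fold change was -3.61 (SE 0.16, edgeR adjusted p = 9.4e-16) in parent cells and -1.05 (SE 0.17, adjusted p = 1.1e-04) in knockout cells. With exonic reads outside other genes the knockout call was lost (-1.46, edgeR adjusted p = 0.19). DUSP1, a phosphatase that switches off MAP kinases, was lower in parent cells (-1.79, adjusted p = 4.1e-16) and in knockout cells (-1.04, adjusted p = 2.3e-10) by the same edgeR test. VEGFA, an angiogenic growth factor, moved the other way, with 0.26 in parent cells (edgeR adjusted p = 6.9e-04) and 0.99 in knockout cells (adjusted p = 4.6e-12).

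The genes whose pattern over the 12 libraries lay nearest that of a member were found by the root mean square difference of centred log2 CPM, over 13932 genes. Those nearest JUN were DUSP10, a phosphatase of JNK and p38 (0.17), the NF-kappaB subunit gene NFKB2 (0.21) and RGS16, a regulator of G protein signalling (0.23). Those nearest FOS were the nuclear receptor gene NR4A1 (0.27), SERTAD1 (0.29) and SMTN (0.29). Those nearest ATF3 were RGS16 (0.27), ADAM8 (0.28) and DUSP10 (0.30). The log2 fold change of DUSP10 was -2.98 in parent cells and -0.82 in knockout cells, beside -3.17 and -0.81 for JUN, and that of NR4A1 was -2.54 and -1.14, beside -2.97 and -1.61 for FOS. These genes were picked for their likeness, so their values are a description.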

How the data were processed

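Total RNA of 12 libraries was sequenced as paired ends in 1 pooled HiSeq4000 run, per the labels' protocols. The processing notes of the submitters name Picard 2.9.2, STAR 2.5.4a, Trimmomatic 0.39, Trim Galore 0.6.2 and the build hg19, without roles. Counter, annotation and strand setting: not given in the sources used here. Per the file headers, each deposited file holds, per gene, read counts (all, exonic, intronic and outside other genes) and TPM values as the authors computed them, for the whole gene and for exons. Genes not listed in a file were taken as 0, and 36 pseudoautosomal copies listed on Y were dropped.

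Exonic counts were tested with edgeR 4.0.16 in R 4.3.3: filterByExpr (minimum count 10), TMM factors, 1 model of 4 group means and the robust quasi-likelihood F test. Intronic counts were tested the same way. CPM values use TMM-scaled library sizes. The test was run on simulated counts with the same spread for all genes and no outlying library, which does not check its calls on these data. Alternatives were DESeq2 1.42.0, RLE size factors, no filter, only the groups compared, a replicate block, each library left out, other read columns, whole-gene TPM with limma 3.58.1 (log2 of TPM plus 1 or 0.1, a scale that understates changes of low genes) and groups by library name.

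The members, lists and tests were chosen with earlier results of these data known. All 10 members are reported. From each other list, the 2 genes with the smallest p in parent cells and the 2 in the difference between lines were named, and the 3 genes nearest in pattern to each of JUN, FOS and ATF3. Intervals cover the fitted error only. Protein sequences were not used here.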

Additional observations from a re-analysis of the deposited data

Results flagged for a closer look

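The effect of the prexasertib label differed between knockout and parent cells, by edgeR's test of the difference itself, for 6 AP-1 genes in exonic reads and for 1 in intronic reads. The log2 change in knockout cells less that in parent cells was 2.36 for JUN, 1.75 for JUNB, 1.44 for JUND, 1.35 for FOS, 0.75 for FOSL2 and 2.99 for ATF3 in exonic reads, and 1.29 for ATF3 in intronic reads. JUN, JUNB, JUND, FOS and ATF3 were lower under the prexasertib label in both lines, by less in knockout cells, and FOSL2 was lower in parent cells alone, with 0.00 in knockout cells. Groups of 3 libraries are too small for a test of single outlying libraries.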

How the results depend on the processing

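Grouping by library name turned every called treatment value. In parent cells 7 members were then higher and 1 lower, with JUN at 3.17, JUNB 1.97, JUND 1.75, FOS 2.97, FOSB 1.55, FOSL2 0.75, ATF3 3.39 and BATF3 -0.51, and in knockout cells 6 were higher and 0 lower, with JUN at 0.81, JUNB 0.22, JUND 0.31, FOS 1.61, FOSB 1.11 and ATF3 0.40. The lines' difference became -2.36 for JUN, -1.75 for JUNB, -1.44 for JUND, -1.35 for FOS, -0.75 for FOSL2 and -2.99 for ATF3, with 0 members above 0 and 6 below. Knockout against parent then gave 1 higher and 3 lower under DMSO and 0 higher and 7 lower under prexasertib, with ATF3 at 0.21 and -2.78. Intronic values became 3.45 for FOS, 1.85 for FOSB, 1.91 for ATF3 and -0.37 for BATF3 in parent cells (3 higher, 1 lower), 1.53 for FOSB, 0.62 for ATF3 and -0.47 for BATF3 in knockout cells (2 higher, 1 lower), and -1.29 for the ATF3 difference (0 above 0, 1 below), with 0 members lower between lines under DMSO and 4 under prexasertib. These follow from exchanging the labels.

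The 8 exonic calls in parent cells, the 7 between lines under the DMSO label, the 6 differences between lines, and the knockout calls of JUN, JUND, FOS and ATF3 kept their direction and call under every other alternative that could be run. JUNB and FOSB have no reads outside other genes and were not tested there. With all reads, 1 member (BATF3) was higher in knockout cells. With either TPM pseudocount, 1 member (BATF3) was higher in knockout cells under DMSO, where 10856 and 11056 of 23045 genes were called higher. Between lines under prexasertib, 0 members were higher with only the groups compared, with all reads and with TPM plus 1, while 1 was lower with only the groups compared and 0 with either TPM, where FOSL2 turned to 0.020 and 0.028. TPM moved the median of all genes in this scale, to 0.19 in parent cells, 0.29 and 0.11 between lines under DMSO and prexasertib and -0.17 for the difference at a pseudocount of 0.1. The cause was not tested. With only the groups compared, 0 members were higher in intronic reads of parent cells. JUN held 29.3, 37.6, 29.0 and 52.0% of exonic TPM, in the order of groups given above. These shares were lower than those in the authors' gene TPM, which divides by the whole gene length, and what set them apart was not tested.

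Leaving out 1 library gave 0 to 1 higher and 1 to 3 lower between lines under prexasertib, and 4 to 6 lower in knockout cells. In intronic reads it gave 0 to 1 higher in parent cells, 0 to 1 higher and 1 to 3 lower in knockout cells, 2 to 4 lower between lines under DMSO, and 1 to 2 for the difference. A replicate block left every count of members as it was, with 7 lower and 1 higher in parent cells and 6 lower in knockout cells. In deviations from group means, same-numbered libraries correlated at -0.09 to 0.15 and differently numbered ones at -0.21 to 0.16. With 3 libraries per group, these values cannot tell whether the numbers pair the libraries. In 80 cases a value changed sign where neither fit passed, and these are not counted as reversals. The precision of FOSB, with 18 to 190 exonic reads per library, and of the intronic part of FOS, with 2 to 69 reads, is limited by these counts. The lines' difference uses all 4 groups, so it has no fit with fewer.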
